A study of Mus musculus with 11 samples.

Results

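Genes of mitosis and cytokinesis, which build the machinery that separates the chromosomes and divides a cell, were followed in cultured mouse cells of the oligodendrocyte lineage. A list of 46 gene symbols defined them, and every probe set annotated to exactly 1 of these genes was taken, 98 of the 45101 probe sets on the array. Probe sets were found for 45 of the 46 genes, and all 45 passed the filter on dim signals, among 10070 genes tested. The signal of Ccnb1, a B-type cyclin, was not analysed here. Anln is also a gene of myelin and is described apart, so that the counts below cover 44 genes.

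RNA was measured on 11 Affymetrix Mouse Genome 430 2.0 arrays. The cells were progenitors taken from brains at postnatal day 7, depleted of microglia and then selected by their PDGFR-alpha surface protein. CKO oligodendrocytes (n = 3) came from conditional knockouts with both Myrf copies floxed and Cre at the Olig2 gene, written MRF fl/fl, Olig2 wt/cre in the labels. Control oligodendrocytes (n = 4) came from littermates with 1 floxed copy and the same Cre, MRF wt/fl and Olig2 wt/cre, so Cre and a floxed allele were present in both groups. Both were grown for 4 days without PDGF-AA to let them differentiate, and T3, a thyroid hormone, was added at 40 ng/ml. Oligodendrocyte progenitor cells, or OPCs (n = 4), were kept with PDGF (10 ng/ml) over 6 days, and their genotype is not given beyond the word control. B27 was at 2% in every group. Cre at Olig2 acts in cells of the lineage that express Olig2, and the share of cells with a deleted allele was not measured here. Nothing in the labels tells whether replicates came from separate animals or cultures, so the p-values reflect the spread among these 11 samples only, and that may be technical.

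Progenitors divide while PDGF is present and leave the cell cycle when it is withdrawn and they differentiate. The genes described here are transcribed late in the cycle: kinetochore proteins attach chromosomes to the spindle, the spindle checkpoint holds anaphase until all are attached, and the anaphase-promoting complex then releases the sister chromatids. In resting mammalian cells the DREAM complex represses many of these genes through a promoter element called CHR, and in dividing cells B-Myb and FoxM1 activate them, often beside CCAAT boxes bound by NF-Y.

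The signals are MAS 5.0 intensities on a linear scale, with each chip scaled by the authors to a target of 500. All fitted differences are of log2(signal + 16) from limma over all 11 arrays, with their standard error (SE), and an adjusted p under 0.05 after Benjamini-Hochberg adjustment over 10070 genes passes the test, which is what called means below. Myrf itself gave 2849, 1904 and 2223 on CKO replicates 1 to 3, 7374, 6614, 7517 and 6215 on control replicates 1 to 4, and 752, 6848, 1135 and 970.5 on OPC replicates 1 to 4. OPC replicate 2 stood apart from its group, with Myrf near the control level and a correlation with the other OPC arrays of 0.844 to 0.902 across genes, against 0.93 to 0.975 among those. The 5′ to 3′ signal ratio of Gapdh, which falls when the RNA or its copies are short, lay between 1.26 and 1.41 in oligodendrocytes and was 0.332, 1.23, 1.15 and 0.12 on OPC replicates 1 to 4. Of the markers that check the labels, Gfap, an astrocyte gene, was at 15352 to 16881 on the CKO arrays, 14658 to 17212 on the control arrays and 61.8 to 100.3 on the OPC arrays. Of 10 astrocyte markers tested, 9 were called higher in control oligodendrocytes than in OPCs, as were 2454 of all 10070 genes. CKO oligodendrocytes against OPCs also gave 9, beside 2400 of all genes. The markers differed in level, with Aldoc at 3646 to 4429 on the OPC arrays and Gjb6 never above 99.6 on any array. Sox9 overlapped between groups, at 602.7 to 1460.3 on the control arrays and 165.3 to 1501.7 on the OPC arrays. The 9 microglia markers never exceeded 152.2 and the 7 endothelium markers never exceeded 282.8. Precision is limited by how few arrays there are.

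Each mitosis and cytokinesis gene had its lowest fitted mean in CKO oligodendrocytes, a higher one in control oligodendrocytes and its highest in OPCs. Each of the 44 genes reached 200 on all 4 OPC arrays. Signals stayed under 200 on all 3 CKO arrays for 28 genes and on all 4 control arrays for 4 genes (Cenpe, Ndc80, Espl1 and Sgo1). The filter needs 200 on 3 arrays, and 17 genes, these 4 among them, had fewer than 3 oligodendrocyte arrays at that level and so passed only with the help of the OPC arrays, where they are high. As a percent of the OPC mean, the 44 genes stood at a median of 3.72% in CKO oligodendrocytes (0.549% to 57.4%) and 10.5% in control oligodendrocytes (4.65% to 85.4%). In RNA of whole cultures, fewer dividing cells and less of these transcripts per cell cannot be told apart.

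**Figure D1:**
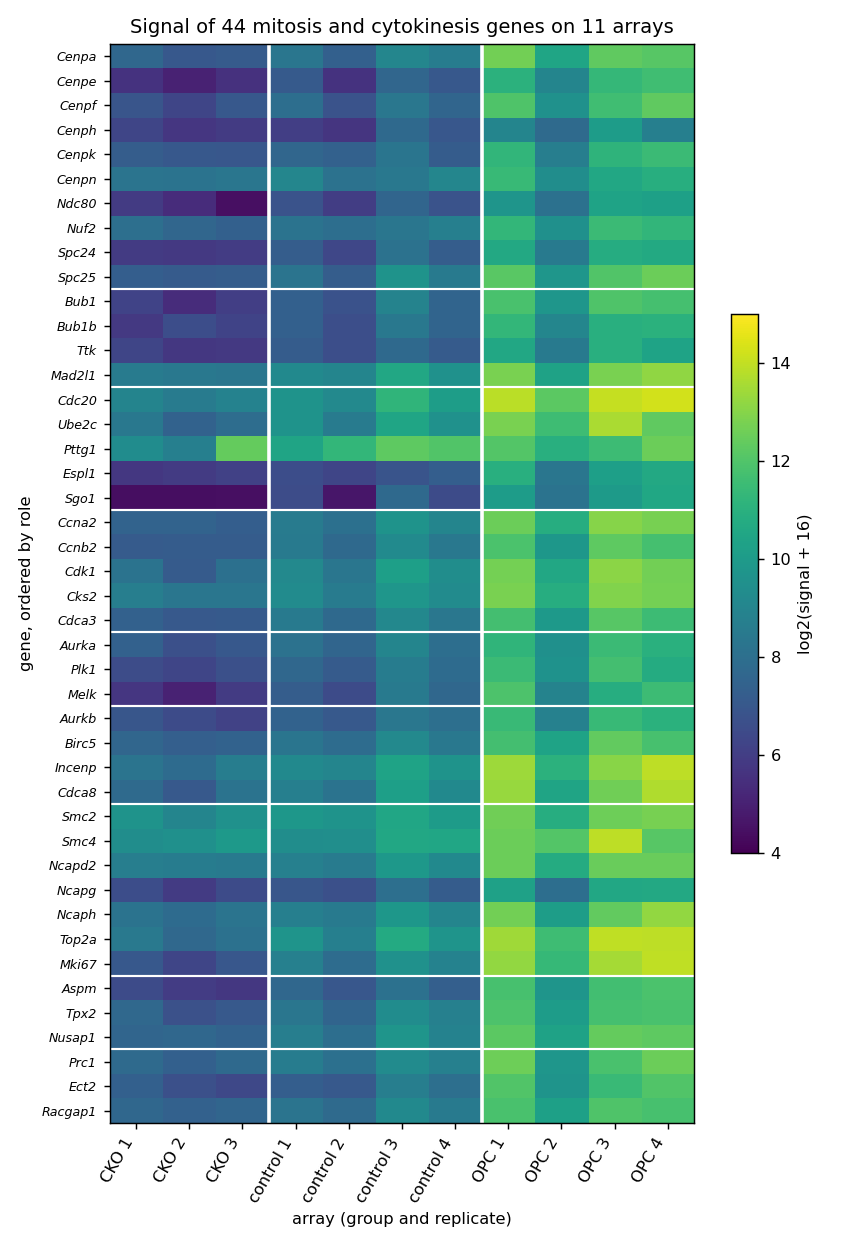
Signals of the 44 mitosis and cytokinesis genes as log2(signal + 16) on each of the 11 arrays. Rows are genes ordered by role with white lines between roles, and columns are arrays by group and replicate. The OPC columns are brightest except OPC replicate 2, control replicate 3 is brighter than the other control columns, and Pttg1 is the one row with a bright CKO column.

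Control oligodendrocytes were set against OPCs, and 43 of the 44 genes fell, while 29.6% of all genes tested were called lower. PDGF, T3 and time in culture were not varied separately, so their parts in this comparison cannot be told apart. The median log2 difference of the 44 genes was -3.01, against -0.09 over all genes tested. Every control array lay below every OPC array for 41 of the 44 genes, and for 23.7% of all genes. The exceptions to that separation were Mad2l1, Ncapg and Pttg1. Pttg1 alone did not pass the test. Of the 27 genes that pass the filter on oligodendrocyte arrays alone, 26 fell, and with no filter at all the number over the 44 genes was again 43. The share of all genes that fell under either of these rules is not given here, and the 29.6% belongs to the main filter. Of the 50 genes with the most negative values among all genes tested, 16 were mitosis and cytokinesis genes, and of the 200 most negative, 40 were. The 17 genes that passed the filter only with the help of the OPC arrays were ranked too. A ranking without them is not given here. Without OPC replicate 2 the number that fell was again 43, against 32.9% of all genes, and the median was -3.54. Leaving out that array changed the fold between the groups by over 1.5 times for 12 genes, each to a more negative log2 difference. Leaving out OPC replicates 1 and 4 did so for 15 genes, each to a less negative one.

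CKO oligodendrocytes set against OPCs gave the same number, 43 of 44 genes lower against 26.8% of all genes tested, with a median of -4.25. The 44 again include the 17 genes that passed the filter only with the help of the OPC arrays. Every CKO array lay below every OPC array for 43 of the 44 genes (26.4% of all genes). Without OPC replicate 2 all 44 passed, against 30.6% of all genes. These comparisons share OPC arrays, and with CKO against control below they share oligodendrocyte arrays too, so each gives its own values and no overlap between them is drawn.

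CKO oligodendrocytes were set against control oligodendrocytes, which differ from them in Myrf genotype, under the same differentiation conditions. Marker sums of other cells also differed between these cultures and are given below. The fitted difference was below 0 for all 44 genes, with a median of -1.22 against 0.03 over all genes tested. Every CKO array lay below every control array for 31 of the 44 genes, and for 14.2% of all genes. In the fit of all 11 arrays 1 gene, Mki67, passed the test, against 3.88% of all genes called lower. None rose (3.64% of all genes were called higher). At an unadjusted p under 0.05 the limma fit gave 23 of the 44 genes lower and 0 higher. Of all 10070 genes it gave 894 lower and 1242 higher at that limit. The count of calls depended on which OPC arrays shared the estimate of spread. Without OPC replicate 2 it was 29 of 44 genes (6.51% of all genes). A fit of the CKO and control arrays alone gave 21 (7.47%). A replicate block, which pairs CKO and control replicates 1 to 3 by number, gave 21 (9.24%). Control replicate 4 has no CKO partner and is left out of the block. By role the block gave 2 of 10 kinetochore genes, 2 of 4 checkpoint genes, 1 of 5 anaphase genes, 4 of 5 cyclins and partners, 3 of 3 kinases, 3 of 4 passenger genes, 3 of 7 condensin and chromosome genes, 2 of 3 spindle genes and 1 of 3 cytokinesis genes. In all of these 3 fits the same 17 genes fell: Spc24, Bub1, Ttk, Ube2c, Ccna2, Ccnb2, Cdk1, Cdca3, Aurka, Plk1, Melk, Birc5, Incenp, Top2a, Mki67, Aspm and Prc1. The 3 fits reuse CKO and control arrays, so their agreement does not repeat the result on other samples. The share of all genes called lower in all 3 cannot exceed 6.51%, the lowest of the single shares. The block also called Cenpf, Cdca8, Ncaph and Tpx2. The median residual standard deviation of the 44 genes was 0.809 on the log2 scale with all arrays and 0.489 without OPC replicate 2.

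**Figure D2:**
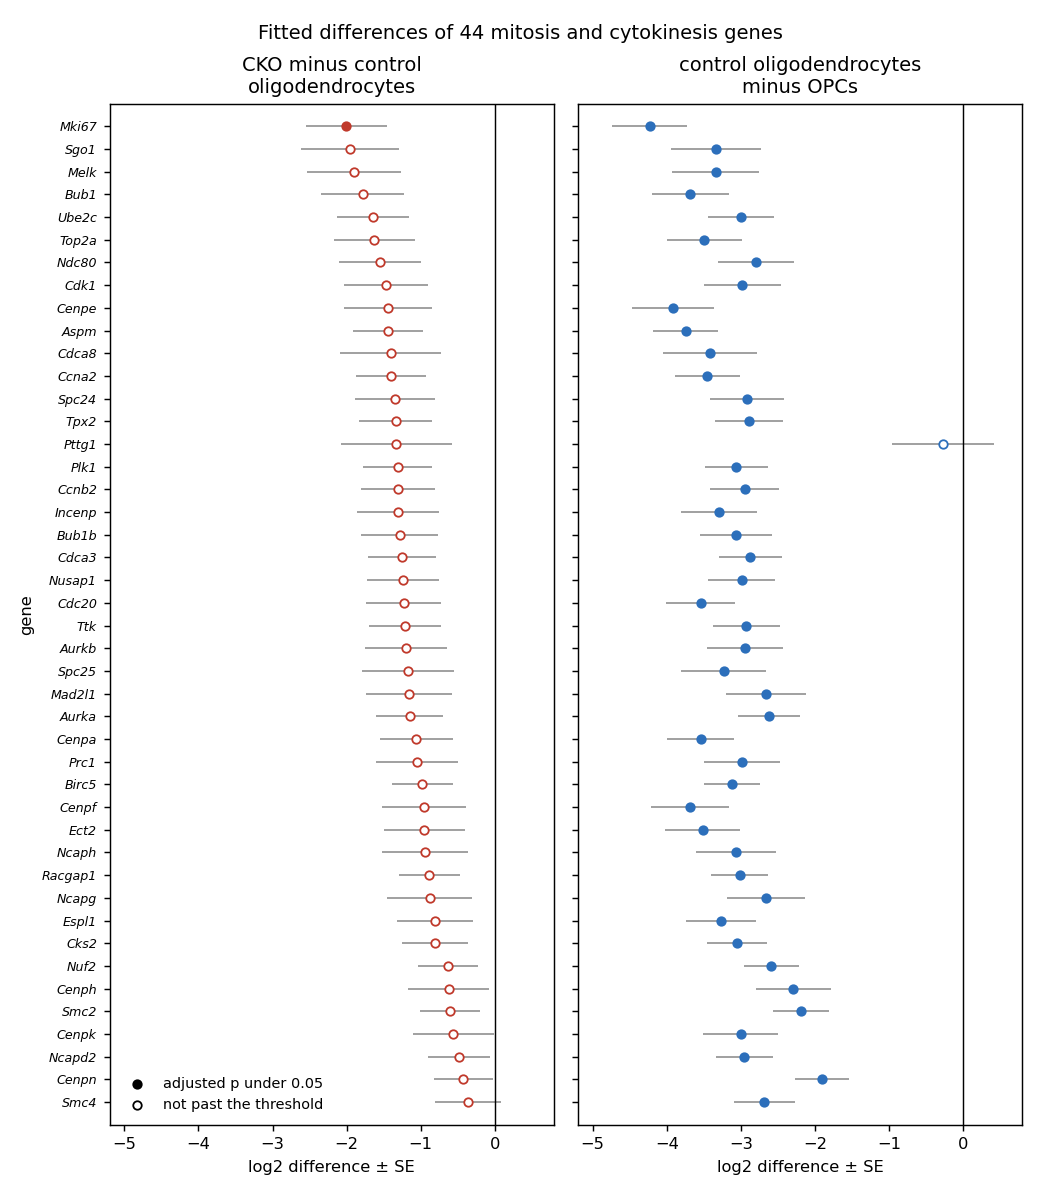
Fitted log2 differences with their standard errors for the 44 genes, CKO minus control oligodendrocytes on the left and control oligodendrocytes minus OPCs on the right. Filled points pass an adjusted p of 0.05 (limma). On the left all points lie below 0 and only Mki67 is filled, and on the right only Pttg1 is open.

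Promoter sequences are shown because the CHR and CCAAT elements named above can be looked for in the genes that fell. RefSeq windows of 300 bases on GRCm38.p6, with 250 bases before and 50 after a transcript start, were found for 39 of the 45 listed genes other than Anln, in 43 windows. Ccnb1 is among them although its signal was not analysed. The letters TTTGAA or TTCGAA, the CHR core, were searched on both strands and stood in 29 of these 43 windows (67.4%), in 19.2% of all 32851 windows and in 13.1% of the windows of genes tested. CCAAT on either strand stood in 81.4% of the windows of these genes and in 37.4% of all windows, and both elements together in 65.1% and 7.52%. The E2F letters TTTGGCGC, TTTCCCGC, TTTCGCGC and TTTGGCGG stood in 9.3% of the windows of these genes and in 2.37% of all. The windows of the other mitosis genes held the CHR letters in 63.8% and the E2F letters in 8.51%, close to these values, those of the APC/C core and cohesin list in 21.9% and 9.38%, and those of DNA replication genes in 17.4% and 41.3%. For each of 5 roles the window is printed of the gene with the highest mean log2 signal among those whose window holds the CHR letters. Capitals mark TTTGAA (or TTCAAA, the same letters on the other strand) and CCAAT (or ATTGG), and in Cdca8 a TTTGAA and an ATTGG share a base.
Cdc20: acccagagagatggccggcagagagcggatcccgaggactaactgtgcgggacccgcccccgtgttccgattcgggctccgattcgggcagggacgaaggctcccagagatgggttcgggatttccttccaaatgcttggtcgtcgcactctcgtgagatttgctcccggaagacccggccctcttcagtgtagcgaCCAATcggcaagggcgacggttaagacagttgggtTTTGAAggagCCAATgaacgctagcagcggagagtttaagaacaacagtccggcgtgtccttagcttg
Smc2: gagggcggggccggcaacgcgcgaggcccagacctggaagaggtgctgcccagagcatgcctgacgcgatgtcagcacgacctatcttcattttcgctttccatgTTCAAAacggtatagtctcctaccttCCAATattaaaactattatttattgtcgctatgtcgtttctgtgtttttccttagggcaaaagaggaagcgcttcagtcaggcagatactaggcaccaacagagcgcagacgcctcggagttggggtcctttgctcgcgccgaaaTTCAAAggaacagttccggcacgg
Cdk1: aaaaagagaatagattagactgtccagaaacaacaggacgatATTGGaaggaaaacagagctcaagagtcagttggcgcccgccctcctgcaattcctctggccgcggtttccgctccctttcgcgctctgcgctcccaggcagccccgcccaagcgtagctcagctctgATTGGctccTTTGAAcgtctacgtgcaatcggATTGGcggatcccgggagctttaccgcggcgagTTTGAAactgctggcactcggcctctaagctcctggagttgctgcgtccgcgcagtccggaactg
Cdca8: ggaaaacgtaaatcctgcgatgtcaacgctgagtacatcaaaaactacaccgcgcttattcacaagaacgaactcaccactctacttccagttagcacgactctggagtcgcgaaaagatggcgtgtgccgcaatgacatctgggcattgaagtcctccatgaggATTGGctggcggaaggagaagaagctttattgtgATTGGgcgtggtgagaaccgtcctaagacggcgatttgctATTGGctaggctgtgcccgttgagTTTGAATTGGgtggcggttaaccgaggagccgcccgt
Prc1: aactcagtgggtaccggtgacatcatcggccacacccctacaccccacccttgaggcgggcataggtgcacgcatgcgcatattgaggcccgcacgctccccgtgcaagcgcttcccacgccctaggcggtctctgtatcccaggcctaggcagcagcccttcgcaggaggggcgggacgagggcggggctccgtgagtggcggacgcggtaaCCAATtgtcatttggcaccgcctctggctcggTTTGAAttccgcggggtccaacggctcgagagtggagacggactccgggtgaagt

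The Cdc20 window is chr4:118437294-118437593 on the minus strand, with TTTGAA beginning at position -18 relative to the start and CCAAT at -53 and -8. The Smc2 window is chr4:52438971-52439270 on the plus strand, and its reversed CHR letters begin at -145 and 27. The Cdk1 window, chr10:69352863-69353162 on the minus strand, has TTTGAA at -71 and -15. In Cdca8, chr4:124936868-124937167 on the minus strand, TTTGAA begins at 14, and in Prc1, chr7:80294201-80294500 on the plus strand, at -5. In each of the 5 windows a match begins between -18 and 27. CHR letters beginning at -100 or later stood in 65.1% of the windows of these genes and in 8.59% of all windows. The 27 genes with a match had a median log2 difference between control oligodendrocytes and OPCs of -3.06, and the 11 measured genes without one had -3.01. Between CKO and control oligodendrocytes the medians were -1.23 and -0.98. A match of letters is a description and neither a binding site nor a cause.

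Kinetochore and centromere genes, 10 in number, all fell in control oligodendrocytes against OPCs, with a median of -2.96. None passed the test between CKO and control oligodendrocytes (median -1.01). At an unadjusted p under 0.05 limma put 3 lower there, beside 894 of all 10070 genes. Cenpa, the histone H3 variant that marks centromeres, had signals of 189, 114 and 127 on the CKO arrays, 303, 150.2, 513.5 and 382 on the control arrays and 6393, 1383, 5069 and 4526 on the OPC arrays. Every oligodendrocyte array lay below the OPC arrays, while control replicate 2 lay among the CKO arrays. Cenpa was 11.7-fold lower in control oligodendrocytes than in OPCs (-3.55 ± 0.46 SE, limma, adjusted p = 8.46e-05), and its difference between CKO and control was -1.06 ± 0.49 (adjusted p = 0.243). Spc25, a subunit of the Ndc80 complex that grips microtubules, had 138.5, 127 and 136 on the CKO arrays, 282, 135, 779 and 344 on the control arrays and 4699, 859, 4111 and 5893 on the OPC arrays. Its control arrays spread widely, with replicate 3 highest and replicate 2 within the CKO range. It was 9.41-fold lower in control oligodendrocytes than in OPCs (-3.23 on the log2 scale, adjusted p = 0.000757), or -3.85 without OPC replicate 2. Cenpn, which recognises nucleosomes with Cenpa, had 282, 279 and 302 on the CKO arrays, 519, 267, 324 and 515.5 on the control arrays and 2737, 651, 1521 and 1903 on the OPC arrays. It kept the highest share of the OPC level of this role, 16.9% in CKO and 23.9% in control oligodendrocytes, and the control and CKO arrays overlapped. The difference between control oligodendrocytes and OPCs was -1.91 ± 0.37 (limma, adjusted p = 0.00127).

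The other kinetochore genes differed in how dim they became. Cenpe, a kinesin that carries chromosomes along the spindle, had 32.4, 17.4 and 30.9 on the CKO arrays, 121.5, 32.8, 185 and 115 on the control arrays and 2161, 498, 2559.7 and 3146 on the OPC arrays. All CKO arrays lay below all control arrays, and all control arrays below the OPC arrays. Cenpe was 15.1-fold lower in control oligodendrocytes than in OPCs (-3.91, limma, adjusted p = 0.000154), or -4.50 without OPC replicate 2. Spc24 and Ndc80, further subunits of the Ndc80 complex, also had CKO arrays wholly below the control arrays, and Nuf2, the fourth, did not. Their log2 differences between CKO and control were -1.35 ± 0.54, -1.55 ± 0.55 and -0.63 ± 0.41 in the order Spc24, Ndc80 and Nuf2. Spc24 passed the test without OPC replicate 2 (adjusted p = 0.017) and with the replicate block (adjusted p = 0.0481). Cenpf, a large protein of the outer kinetochore, had -3.69 in control oligodendrocytes minus OPCs, while Cenph and Cenpk of the inner kinetochore had -2.29 and -3.01. All 3 passed that test, and without OPC replicate 2 Cenpf had -4.30 and Cenpk -3.65.

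Of the spindle checkpoint genes all 4 fell in control oligodendrocytes against OPCs (median -2.997). All 4 had every CKO array below every control array, though none passed the limma test in the fit of all arrays. At an unadjusted p under 0.05 it put 3 lower, beside 894 of all 10070 genes. Mad2l1, which binds and holds Cdc20, had 369.6, 325 and 301 on the CKO arrays, 585, 493, 1540.4 and 741 on the control arrays and 7067, 1259.9, 7107 and 9109.8 on the OPC arrays. Control replicate 3 exceeded OPC replicate 2, so those groups overlapped, and the CKO arrays lay below all others. Mad2l1 was 6.35-fold lower in control oligodendrocytes than in OPCs (-2.67, limma, adjusted p = 0.00166), or -3.32 without OPC replicate 2. The checkpoint kinase Bub1 had 57.2, 25.8 and 49.1 on the CKO arrays, 150.3, 92.5, 465 and 172 on the control arrays and 3657, 873.5, 3955 and 3426 on the OPC arrays. Its 3 groups did not overlap, and its difference between CKO and control was -1.78 ± 0.56, with an adjusted p of 0.0784 that was 0.0114 without OPC replicate 2 and 0.0225 with the replicate block (limma). Bub1b, the BubR1 subunit of the checkpoint complex, had 40.6, 82.3 and 57.5 on the CKO arrays, 149, 83.9, 326 and 171 on the control arrays and 2443, 508, 1926 and 2055 on the OPC arrays. No groups overlapped here either, and Bub1b was 8.37-fold lower in control oligodendrocytes than in OPCs and at least 13-fold lower in CKO oligodendrocytes than in OPCs. The second fold is a bound against a signal of 100, because all CKO arrays of Bub1b were dimmer than that. Ttk, the kinase that recruits the checkpoint to kinetochores, had a difference between CKO and control of -1.21 ± 0.49 (adjusted p = 0.172, and 0.0114 without OPC replicate 2).

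Genes of anaphase control comprised Cdc20, Ube2c, Pttg1, Espl1 and Sgo1, of which all but Pttg1 fell in control oligodendrocytes against OPCs. Cdc20, the activator of the anaphase-promoting complex, had 484, 370.0 and 451 on the CKO arrays, 783, 566, 2356 and 1099 on the control arrays and 14855, 4721, 16844 and 19238 on the OPC arrays. Its groups did not overlap, and control replicate 3 was the highest oligodendrocyte array. Cdc20 was 11.7-fold lower in control oligodendrocytes than in OPCs (limma, adjusted p = 9.94e-05) and differed by -1.23 ± 0.51 between CKO and control (adjusted p = 0.179). Ube2c, the ubiquitin-conjugating enzyme that works with the same complex, had 324, 161 and 225 on the CKO arrays, 794, 370.0, 1411 and 743 on the control arrays and 7131.5, 3041, 12600.1 and 5043 on the OPC arrays. Its groups were again apart, and its difference between CKO and control, -1.64 ± 0.48, had an adjusted p of 0.0611. That p was 0.0194 without OPC replicate 2, 0.0401 without OPC replicate 3 and 0.0298 without control replicate 2 (limma).

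Pttg1 and Sgo1 stood apart from the rest of this role, and were singled out after their values were seen. Pttg1, securin, which holds separase inactive until anaphase, had 637, 412 and 5442.5 on the CKO arrays, 1376, 2446, 4919.6 and 4136 on the control arrays and 4254, 1936, 3008 and 5876 on the OPC arrays. CKO replicate 3 reached the level of the OPC arrays, CKO replicates 1 and 2 lay below every other array, and control and OPC arrays overlapped throughout. Its difference between control oligodendrocytes and OPCs was -0.27 ± 0.69 (limma, adjusted p = 0.76) and that between CKO and control -1.33 ± 0.75 (adjusted p = 0.337). Without CKO replicate 3 the CKO minus control value was -2.45 and passed the test (adjusted p = 0.025), and against OPCs it was -2.72 (adjusted p = 0.00231). A second Pttg1 probe set gave 201, 101.3 and 1122 on the CKO arrays, 404, 703.5, 1284 and 1318 on the control arrays and 356, 485, 630.3 and 269 on the OPC arrays. CKO replicate 3 was high on it too, and its value for control oligodendrocytes minus OPCs was 0.98 ± 0.61 (adjusted p = 0.195). Sgo1, shugoshin, which protects cohesin at centromeres, had 5.0, 5.0 and 5.8 on the CKO arrays, 77.5, 9.4, 198 and 75.6 on the control arrays and 1065, 273, 1011 and 1491 on the OPC arrays. The CKO arrays lay below the control arrays, and control replicate 2 was almost as dim. Sgo1 was at least 7.19-fold lower in CKO oligodendrocytes than in OPCs (limma, adjusted p = 7.15e-05). Espl1, separase, had -3.27 in control oligodendrocytes minus OPCs and -0.81 in CKO minus control.

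**Figure D3:**
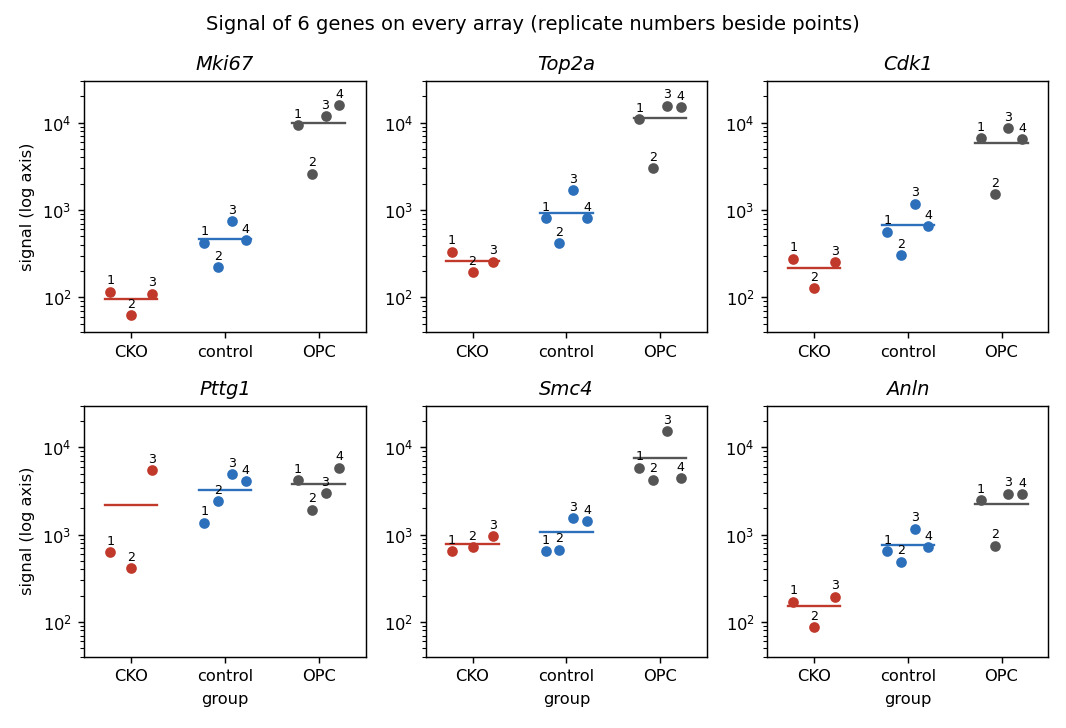
Signals of 6 genes on every array on a log axis, with a point per array numbered by replicate and a line at the group mean. Mki67, Top2a and Cdk1 are lowest on the CKO arrays and lower on the control than on the OPC arrays, CKO replicate 3 of Pttg1 lies at 5442.5 beside 637 and 412, Smc4 overlaps between CKO and control, and the control arrays of Anln overlap the lowest OPC array.

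Cyclins, Cdk1 and their partners all fell, 5 of 5 in control oligodendrocytes against OPCs, with values of -3.45 for Ccna2 to -2.87 for Cdca3. Cdk1, the kinase that drives entry into mitosis, had 278.5, 129 and 252 on the CKO arrays, 565, 305, 1182 and 658 on the control arrays and 6634, 1534.5, 8646 and 6534 on the OPC arrays. Its 3 groups were separate, with CKO replicate 2 and control replicate 2 the lowest of their groups. Cdk1 was 7.89-fold lower in control oligodendrocytes than in OPCs (limma, adjusted p = 0.000682), and its CKO minus control difference of -1.47 ± 0.57 had an adjusted p of 0.154, or 0.0127 with the replicate block. Ccna2, cyclin A2, had 167, 166 and 138 on the CKO arrays, 364, 250.5, 799 and 502 on the control arrays and 5961, 1826, 8165 and 6799 on the OPC arrays. It was 10.9-fold lower in control oligodendrocytes than in OPCs, and the CKO arrays, close to each other, lay below all control arrays. Cks2, a small subunit of the Cdk1 complex, had 399, 307 and 304 on the CKO arrays, 617, 371, 873 and 624 on the control arrays and 7033, 1825, 7651 and 6656 on the OPC arrays. Control replicate 2 lay between the CKO arrays, and Cks2 had the smallest CKO minus control difference of the role, -0.80 ± 0.44 (adjusted p = 0.327). The B-type cyclin Ccnb2 had CKO signals between 125.8 and 130.6 and control signals between 200.3 and 594, and differed by -1.31 ± 0.50 (adjusted p = 0.151, and 0.00962 without OPC replicate 2). Cdca3, an F-box-like protein of mitotic entry, differed by -1.25 ± 0.46 (adjusted p = 0.134, and 0.0109 without OPC replicate 2).

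The mitotic kinases Aurka, Plk1 and Melk fell in control oligodendrocytes against OPCs, and for each of them the CKO arrays lay below all control arrays. Aurka, which builds spindle poles, had 157, 86.3 and 113 on the CKO arrays, 268, 176, 505.5 and 237.5 on the control arrays and 2349, 710.4, 2918 and 2019 on the OPC arrays. Plk1, which acts from mitotic entry to cytokinesis, had 78.6, 63.7 and 86.7 on the CKO arrays, 188, 126.5, 382 and 217 on the control arrays and 2872, 759, 3374.5 and 1719.8 on the OPC arrays. In both genes control replicate 3 was the highest of its group and OPC replicate 2 the lowest of its own, with no overlap between groups. Against OPCs, Aurka was 6.14-fold and Plk1 8.36-fold lower in control oligodendrocytes (limma, adjusted p = 0.000362 and 0.000147). Melk, a kinase found in dividing cells, had 37.7, 17.0 and 44.6 on the CKO arrays, 134, 74.6, 339 and 189 on the control arrays and 3892, 470.0, 1855 and 2942 on the OPC arrays. OPC replicate 2 was far below the other OPC arrays but above every control array. Melk differed by -1.90 ± 0.64 between CKO and control oligodendrocytes, among the largest values of the 44 genes, with an adjusted p of 0.0992 that was 0.00976 without OPC replicate 2 and 0.015 with the replicate block.

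The chromosomal passenger complex corrects faulty attachments and later steers cytokinesis, and its 4 genes all fell in control oligodendrocytes against OPCs (median -3.21). Incenp, its scaffold, had 286, 216 and 395 on the CKO arrays, 572, 500.5, 1336 and 778 on the control arrays and 10655, 2161, 8333 and 15415 on the OPC arrays. The OPC arrays were the most spread, and the CKO arrays lay below the control arrays. Incenp was 9.79-fold lower in control oligodendrocytes than in OPCs (-3.29, or -3.88 without OPC replicate 2, limma, adjusted p = 0.000319) and differed by -1.30 ± 0.56 between CKO and control (adjusted p = 0.197, and 0.00702 with the replicate block). Cdca8, borealin, had 209, 117.5 and 275 on the CKO arrays, 411, 279, 1166 and 576 on the control arrays and 10101, 1359, 6170.2 and 13365.5 on the OPC arrays. OPC replicate 2 had 13.8% of the mean of the other 3 OPC arrays, the lowest share of the 44 genes, and was still above control replicate 3. Birc5, survivin, had 180.0, 143 and 158 on the CKO arrays, 294, 221, 569 and 319 on the control arrays and 3295, 1326, 5289.6 and 3539 on the OPC arrays. Its groups did not overlap, and it was 8.73-fold lower in control oligodendrocytes than in OPCs (adjusted p = 5.39e-05). Aurkb, the kinase of the complex, differed by -2.94 between control oligodendrocytes and OPCs (-3.56 without OPC replicate 2) and by -1.20 between CKO and control. The probe sets of Incenp, Aurkb, Cdc20 and Ncaph carry the suffix x_at and those of Cdca8, Pttg1, Cks2 and Prc1 the suffix s_at, which mark probes that can match other transcripts, so these values are less certain.

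Among the condensin and chromosome structure genes all 7 fell in control oligodendrocytes against OPCs, and Mki67 also in CKO against control oligodendrocytes. Mki67, the Ki-67 protein that coats mitotic chromosomes and serves as the standard marker of dividing cells, had 116, 63.1 and 111 on the CKO arrays, 425, 222, 748.5 and 451 on the control arrays and 9456, 2615, 11836 and 15832 on the OPC arrays. The 3 groups did not overlap. Means were 96.7 ± 29.2 (SD, n = 3) in CKO, 461.5 ± 217 (SD, n = 4) in control oligodendrocytes and 9935 ± 5544 (SD, n = 4) in OPCs. Mki67 was 4.01-fold lower in CKO than in control oligodendrocytes (-2.002 ± 0.54 SE, limma, adjusted p = 0.0443). It was 18.8-fold lower in control oligodendrocytes than in OPCs (adjusted p = 4.77e-05) and 75.3-fold lower in CKO oligodendrocytes than in OPCs (adjusted p = 5.15e-06), the most negative of the 44 genes in all 3 comparisons. The call between CKO and control depended on single arrays. Its adjusted p ranged from 0.00207 to 0.19 over all alternatives. Leaving out CKO replicate 1, 2 or 3 gave 0.101, 0.19 and 0.101, leaving out control replicate 1, 3 or 4 gave 0.094, 0.128 and 0.084, and leaving out OPC replicate 1 or 3 gave 0.061 and 0.0534. It was 0.00207 without OPC replicate 2 and 0.00437 with the replicate block.

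Top2a, the topoisomerase that untangles sister chromatids, had 334, 196 and 257 on the CKO arrays, 807, 414, 1674.5 and 816 on the control arrays and 11018, 3014, 15697 and 15199 on the OPC arrays. Its groups did not overlap, and it was 11.3-fold lower in control oligodendrocytes than in OPCs (limma, adjusted p = 0.000206). Its CKO minus control difference was -1.62 ± 0.55 (adjusted p = 0.105, and 0.0109 without OPC replicate 2). Smc2 and Smc4 are the ATPase arms of condensin. Smc2 had 780.5, 503 and 747 on the CKO arrays, 888, 786, 1459 and 1045 on the control arrays and 6264.5, 1854, 6104.5 and 6807 on the OPC arrays. The CKO arrays lay just below the control arrays, and Smc2 was 4.56-fold lower in control oligodendrocytes than in OPCs (limma, adjusted p = 0.000582). Smc4 had 652.5, 724 and 957.5 on the CKO arrays, 647, 673, 1543.5 and 1435 on the control arrays and 5853, 4268, 15490.1 and 4473 on the OPC arrays. CKO and control arrays overlapped, and the CKO minus control value, -0.36 ± 0.44 (adjusted p = 0.699), was the nearest to 0 of the 44 genes. OPC replicate 3 of Smc4 was far above the other OPC arrays. Ncapd2, Ncapg and Ncaph, further subunits of condensin I, differed by -2.96, -2.66 and -3.07 between control oligodendrocytes and OPCs and by -0.49, -0.88 and -0.95 between CKO and control. Without OPC replicate 2 the values against OPCs were -3.30 for Ncapg and -3.73 for Ncaph.

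Of the spindle assembly and the cytokinesis genes, 3 of 3 were lower in control oligodendrocytes than in OPCs in each role. Between CKO and control limma called none. At an unadjusted p under 0.05 it put 3 spindle and 0 cytokinesis genes lower, beside 894 of all 10070 genes. Nusap1, which bundles spindle microtubules, had 178, 189.8 and 159 on the CKO arrays, 404, 234, 832 and 457 on the control arrays and 4819, 1280.0, 5454.5 and 4864 on the OPC arrays. Tpx2, which activates Aurka on the spindle, had 197, 88.8 and 117 on the CKO arrays, 303, 169, 646 and 427 on the control arrays and 3880.3, 1058, 3466 and 3608 on the OPC arrays. The CKO arrays of Nusap1 lay below all control arrays, whereas CKO replicate 1 of Tpx2 exceeded control replicate 2. Against OPCs these genes were 7.94-fold and 7.43-fold lower in control oligodendrocytes (limma, adjusted p = 0.000249 and 0.000354). Aspm, a protein of spindle poles, had 74.8, 45.2 and 39.4 on the CKO arrays, 191, 111, 257 and 143 on the control arrays and 3507, 834, 3199 and 3806 on the OPC arrays. It was 13.4-fold lower in control oligodendrocytes than in OPCs, and its CKO minus control difference of -1.45 ± 0.47 had an adjusted p of 0.0907, or 0.00372 without OPC replicate 2. Prc1, which crosslinks the central spindle, had 206, 152 and 198 on the CKO arrays, 380.3, 249.6, 626 and 421 on the control arrays and 6087, 873, 3648 and 5835 on the OPC arrays. Its groups did not overlap, and it was 7.92-fold lower in control oligodendrocytes than in OPCs (-2.99, adjusted p = 0.000598), or -3.61 without OPC replicate 2. Racgap1, the GTPase-activating subunit of centralspindlin, had 188, 153 and 179 on the CKO arrays, 288, 206, 579 and 349.8 on the control arrays and 3666, 1188, 4015 and 3526 on the OPC arrays. Ect2, which Racgap1 recruits to activate RhoA, had 151, 86.5 and 68.7 on the CKO arrays, 142, 120.2, 405 and 241 on the control arrays and 4062, 812, 2831 and 4105 on the OPC arrays. CKO and control arrays of Ect2 overlapped while those of Racgap1 did not. Both were lower in control oligodendrocytes than in OPCs, by 8.1-fold and 11.4-fold (limma, adjusted p = 7.46e-05 and 0.00018).

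The genes moved together between replicates as well as between groups. OPC replicate 2 was the lowest OPC array for 44 of 44 genes, against 34.7% of all genes tested, at a median of 23.6% of the mean of the other 3 OPC arrays (13.8% to 49.6%). It lay between the other OPC arrays and the control arrays for 41 genes (13.2% of all genes). This array also had signals of 19380 for Mbp, 16882 for Gpr17 and 16722 for Ugt8a, genes that mark maturing oligodendrocytes and late progenitors. Cnp, Mag, Cldn11 and Opalin were highest on it among OPC arrays as well. Other oligodendrocyte markers were not, with Mobp at 69.9, Mog at 71.1 and Aspa at 31.4. These had 751.3 and 88.9 on OPC replicate 3 and 40.6 on OPC replicate 4. Of the progenitor markers Pdgfra, Cspg4 and Ptprz1 were lowest on OPC replicate 2 and Sox5 highest. Mbp was also high on OPC replicate 3, at 15042, against 1338 and 1587 on OPC replicates 1 and 4, and OPC replicate 3 had no lower level of mitosis genes than those. Among control arrays, replicate 3 was the highest for 41 genes (32.1% of all genes) and replicate 2 the lowest for 41 (20.9%). From highest to lowest, replicates 3, 4, 1 and 2 followed each other for 28 genes, and for 6.96% of all genes. The mean level of the 44 genes, on the log2 scale, was 7.38, 6.99 and 7.28 on CKO replicates 1 to 3, 8.24, 7.65, 9.17 and 8.48 on control replicates 1 to 4, and 11.89, 9.89, 11.94 and 11.93 on OPC replicates 1 to 4. The median standard deviation within a group was 0.298 among CKO arrays, 0.669 among control arrays and 1.033 among OPC arrays, or 0.268 among OPC arrays without replicate 2.

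Marker lists of other cells moved with the groups too. The 11 of 11 astrocyte markers with a probe set summed to 87026 to 94488 on the CKO arrays, 57183 to 78761 on the control arrays and 5880 to 10905 on the OPC arrays. Control replicate 3, the control array with the highest level of mitosis genes, had the lowest astrocyte sum of all oligodendrocyte arrays. The 9 of 10 oligodendrocyte markers summed to 55374 to 67208 on the CKO arrays, 100493 to 123296 on the control arrays and 18562 to 74299 on the OPC arrays. The 7 of 8 progenitor markers summed to 25697 to 31136 on the CKO arrays, 13117 to 19175 on the control arrays and 40228 to 54291 on the OPC arrays. Pericyte, muscle and fibroblast markers, 11 of 11, summed to 4794 to 8361 on the CKO arrays, 1028 to 2967 on the control arrays and 345.5 to 585.9 on the OPC arrays. Most of that sum on the CKO arrays was Acta2, Tagln and Myl9. Pdgfrb never exceeded 92.6 and Col1a1 never exceeded 65.4, while Col1a2 and Col3a1 reached 829 and 956 on CKO replicate 3. Neuron markers, 9 of 9, summed to 1424 to 1739 on the CKO arrays, 2560 to 2712 on the control arrays and 2059 to 7797 on the OPC arrays. The 7797 was on OPC replicate 2, where Dcx alone had 6455. Schwann cell markers, 3 of 5, summed to 6795 to 8742 on the CKO arrays, 8345 to 9561 on the control arrays and 9669 to 15569 on the OPC arrays. Nearly all of that sum was Sox2, which neural progenitors express too, while Pmp2 and Ngfr never exceeded 150.5. No marker was at exactly 0, and Pdgfra, the receptor for PDGF, was at 1316 to 1665 on the CKO arrays, 1742 to 3532 on the control arrays and 6309 to 19102 on the OPC arrays. The part of other cells in the differences of mitosis genes was not tested.

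**Figure D4:**
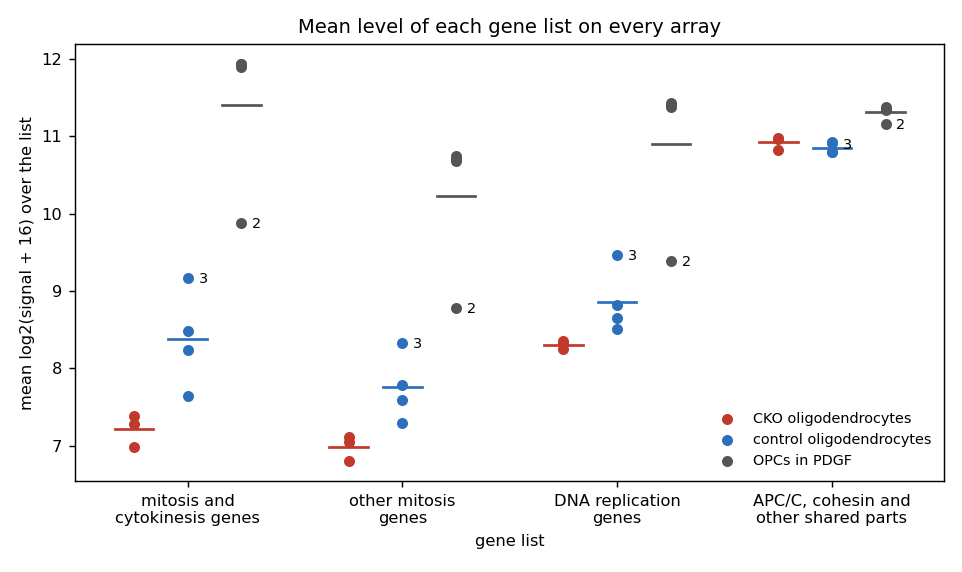
Mean log2(signal + 16) of 4 gene lists on every array, with a point per array and a line at each group mean. The 44 mitosis and cytokinesis genes, the other mitosis genes and the DNA replication genes are highest on OPC replicates 1, 3 and 4, with OPC replicate 2 apart, and control replicate 3 is the highest control array of each, while the last list lies between 10.79 and 11.38 on all arrays.

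Related lists of the cell cycle were measured on the same arrays. Of 52 other mitosis genes, which include kinesins, further kinetochore proteins and regulators, 51 fell in control oligodendrocytes against OPCs (median -2.62), where 29.6% of all genes tested fell and the median of all was -0.09. The most negative were Kif2c, a kinesin that removes tubulin from microtubule ends, at -3.93 ± 0.62, Trip13, an ATPase of checkpoint silencing, at -3.69 ± 0.64, and Kif23, a kinesin of the central spindle, at -3.52 ± 0.64 (limma, adjusted p = 0.000326, 0.000598 and 0.000808). Between CKO and control none of the 52 passed the limma test, with a median of -0.89. At an unadjusted p under 0.05 it put 13 lower, beside 894 of all 10070 genes. DNA replication genes, which act in S phase, fell in 40 of 42 cases in control oligodendrocytes against OPCs (median -2.16). Mcm6, a subunit of the replicative helicase, had -3.43 ± 0.47, Cdt1, which loads it, -3.39 ± 0.70, and Uhrf1, which maintains DNA methylation, -3.26 ± 0.55 (adjusted p = 0.000128, 0.00186 and 0.000532). Between CKO and control none of the 42 passed the test, and the median was -0.40. At an unadjusted p under 0.05 limma put 5 lower, again beside 894 of all 10070 genes.

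The APC/C core, cohesin and similar subunits, which many cells keep outside mitosis, gave other values. Of 29 such genes 14 were lower and 1 higher in control oligodendrocytes than in OPCs, with a median of -0.37, beside 29.6% of all genes tested called lower. Cdc23, an APC/C subunit, had -1.42 ± 0.18, the cohesin subunit Smc1a -1.39 ± 0.19, the cohesin regulator Pds5b -1.34 ± 0.21 and the APC/C subunit Anapc11 0.64 ± 0.22 (limma, adjusted p = 6.88e-05, 0.000113, 0.000349 and 0.0265). Between CKO and control none of the 29 passed, and the median was 0.06. The limma fit put 2 higher and 0 lower at an unadjusted p under 0.05, beside 1242 and 894 of all 10070 genes.

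Further probe sets of the 44 genes gave 72 in all that passed the filter, with more than 1 for 23 genes. When every probe set was fitted, 69 of the 72 were lower in control oligodendrocytes than in OPCs, against 25.5% of all 17133 probe sets. Between CKO and control 71 lay below 0, and the exception was a dim second probe set of Cenpa, at 0.26 ± 0.58. None was called by limma, against 3.13% of probe sets called lower. At an unadjusted p under 0.05 limma put 31 lower and 0 higher. The share of all probe sets at that limit is not given here. Some probe sets of a gene disagreed among OPC arrays. Between OPC replicates 4 and 3 the log2 difference was -2.81 and -0.01 for the other probe sets of Smc4, against -1.79 for the brightest. For Smc2 it was -3.12 on a second probe set against 0.16 on the brightest, and for Cenpe -1.94 against 0.30. OPC replicate 4 was the array with the Gapdh ratio of 0.12, and the part of RNA length in these values was not tested.

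Anln, anillin, links actin, myosin and septins in the contractile ring of dividing cells, and in mouse myelin it is needed for the septin filaments that keep the sheath compact. Its signals were 171, 87.3 and 195 on the CKO arrays, 649, 491, 1175 and 722 on the control arrays and 2481, 749, 2955 and 2886 on the OPC arrays. All CKO arrays lay below all control arrays, and control and OPC arrays overlapped because OPC replicate 2 fell among the control arrays. Anln was 4.62-fold lower in CKO than in control oligodendrocytes (-2.21 ± 0.46 SE, limma, adjusted p = 0.0124). The adjusted p was 0.0774 without CKO replicate 2 and 0.00036 without OPC replicate 2. It was 2.73-fold lower in control oligodendrocytes than in OPCs (-1.45 ± 0.43, adjusted p = 0.0134) and 12.6-fold lower in CKO oligodendrocytes than in OPCs (-3.66 ± 0.46, adjusted p = 7.75e-05). The value between control oligodendrocytes and OPCs did not pass the test without OPC replicates 1 and 4, the arrays with the lowest Gapdh ratios (-1.03, adjusted p = 0.138). Control oligodendrocytes kept 33.5% of the OPC mean of Anln and CKO oligodendrocytes 6.67%, beside medians of 10.5% and 3.72% for the 44 genes. On this brightest probe set its value between CKO and control was more negative than that of any of the 44. Its value between control oligodendrocytes and OPCs was nearer 0 than that of any but Pttg1. A dimmer second probe set, with every probe set fitted, gave -1.07 ± 0.44 between CKO and control (limma, adjusted p = 0.217). It gave -0.80 ± 0.41 between control oligodendrocytes and OPCs (adjusted p = 0.119), so neither was called. Between CKO oligodendrocytes and OPCs it gave -1.87 ± 0.44 (adjusted p = 0.00492).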

How the data were processed

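RNA of 11 samples was hybridised to 1 array each. Per the submitters' processing notes the authors made the deposited values with GCOS 1.3 and MAS5, as linear signal intensities scaled to a target of 500, and the 2% trimmed mean of each deposited array was 500.0. A step of background or batch correction beyond MAS5 is not given in the sources used here.

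Probe sets annotated to exactly 1 gene (34958 of 45101, with 932 annotated to several and 9211 unnamed here) took the current symbol by Entrez identifier, which matched for 34754. Probe sets with a signal of 200 or more on at least 3 arrays were kept (17133 with 1 gene), and the one with the highest mean log2(signal + 16) stood for each of 10070 genes. limma 3.58.1 in R 4.3.3 fitted group means over all 11 arrays with a mean-variance trend, and p-values were adjusted by Benjamini-Hochberg over all genes with a threshold of 0.05. Python 3.11.15, numpy 2.4.6, pandas 2.3.3, scipy 1.17.1 and matplotlib 3.10.9 did the rest. A group with all arrays under 100 gave a bound against 100 in place of a fold.

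Groups were taken from the labels. Same-numbered CKO and control arrays deviated together from their group means (r across genes 0.242, 0.241 and 0.214), so the replicate number counts as pairing them, although the labels give no shared litter or day. Some arrays with different numbers did so too, with CKO replicate 3 and control replicate 4 at 0.328, CKO replicate 2 and control replicate 1 at 0.159 and CKO replicate 1 and control replicate 2 at 0.14. Numbers did not pair the control arrays or the CKO arrays with the OPC arrays. The pseudocount, the filter, the probe set rule, the normalization, the variance model, the block and each array left out were varied.

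Signals on every array are given for the 3 genes of each role with the highest mean log2 signal, for genes called between CKO and control oligodendrocytes and for genes that stood apart in their role. Of the related lists the 3 largest changes in each direction past the threshold between control oligodendrocytes and OPCs are named. The genes, roles and lists were chosen with earlier results of these data known. On simulated data with 10070 genes, 35% of genes changed by 1 on the log2 scale between CKO and control oligodendrocytes were recovered. The fit recovered 96% of those changed by 2, with 2.24% false calls. In the measured data the median standard deviation of the mitosis and cytokinesis genes was 0.298 among CKO, 0.669 among control and 1.033 among OPC arrays. Whether the simulated rates hold under such unequal spread, or with an array like OPC replicate 2, was not tested.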

Additional observations from a re-analysis of the deposited data

Results flagged for a closer look

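In the OPC group 1 array lay far from the other 3 for 17 of the 45 genes, Anln included, and it was the lowest array, OPC replicate 2, each time. The measure is the gap of that array to the nearest other, divided by the range of the group on the log2 scale, set against Dixon's critical value for 4 arrays. Chance passes that limit in about 1 in 20 groups, and 6.44% of all genes tested passed it among OPC arrays. None of the 45 passed it among control arrays, where 5.8% of all genes did.

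The kinetochore genes Cenpk, Nuf2 and Spc24 had values of 0.878, 0.873 and 0.936, with signals of 401.4, 723.2 and 339.1 on OPC replicate 2. The checkpoint genes Bub1, Bub1b and Mad2l1 had 0.904, 0.847 and 0.871. Cdk1 had 0.838 and its partner Cks2 0.903. The passenger kinase Aurkb had 0.830. The condensin genes Smc2, Ncapd2 and Ncapg had 0.916, 0.958 and 0.864. The spindle genes Aspm, Tpx2 and Nusap1 had 0.885, 0.913 and 0.914, the cytokinesis gene Racgap1 had 0.893, and Anln had 0.872. OPC replicate 2 also carried the highest oligodendrocyte marker sum of the OPC arrays, 74299, and a Myrf signal of 6848. Most of that sum was Cnp, Mbp and Ugt8a, at 27153, 19380 and 16722, while Mobp, Mog and Aspa were dim on this array. The part of its cell composition in these values was not tested.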

How the results depend on the processing

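The count of genes lower in CKO than in control oligodendrocytes was the one result that moved widely, from its value of 1 of 44. It was 19 with array weights, 21 with only the 2 compared groups fitted and 21 with the replicate block. It was 2 with a pseudocount of 1 and 2 with quantile normalization, and 0 with a pseudocount of 64, with no filter and with every probe set fitted. Leaving out 1 array gave 0 to 29, with 0 without CKO replicate 1 or 2, control replicate 1, 3 or 4, or OPC replicate 1, with 3 without control replicate 2 and with 29 without OPC replicate 2. Over all genes the calls in both directions together numbered 758, against 1323 without OPC replicate 2, 1587 with only the 2 compared groups, 2160 with array weights and 2238 with the replicate block. Calls lower alone numbered 391, against 656 without OPC replicate 2, 752 with only the 2 compared groups and 930 with the replicate block. For the pseudocounts, quantile normalization, no filter and the other arrays left out, no count over all genes is given here. None of the 44 genes was called higher in any of these fits. The median difference of the 44 genes stayed below 0 throughout, from -1.44 without control replicate 2 to -0.83 with array weights.

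Against OPCs the genes lower in control oligodendrocytes numbered 42 to 43 and those lower in CKO oligodendrocytes 42 to 44. Pttg1 between control oligodendrocytes and OPCs changed sign, with 0.357 when every probe set was fitted, 0.357 for the mean of its probe sets, 0.253 without OPC replicates 1 and 4, and -0.55 to 0.082 when 1 array was left out. The cause was not tested, and it passed the threshold in none of these. Anln lost its call between control oligodendrocytes and OPCs without OPC replicates 1 and 4, at -1.03 (adjusted p = 0.138). The replicate block moved no other count of the 44 genes by over 1.5 times. Signals under 200, held by 28 genes on all CKO arrays, limit how well the CKO levels are measured.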
